A study of Mus musculus with 16 samples.

Results

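The genes of the epithelial sodium channel (ENaC) and of the kinase, ubiquitin ligase and receptors that act on it were followed in mIMCD3, a mouse epithelial line derived from the collecting duct of the inner medulla. The 8 genes were taken by symbol from the count tables: the channel subunits Scnn1a, Scnn1b and Scnn1g, the kinase Sgk1, the ubiquitin ligase Nedd4l, the mineralocorticoid receptor Nr3c2, the glucocorticoid receptor Nr3c1, and Tsc22d3, which encodes the glucocorticoid-induced leucine zipper protein. All 8 were among the 55367 gene symbols listed, and 6 passed the filter on low counts. Scnn1b and Scnn1g did not pass and were not tested.

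RNA-seq was performed on 16 libraries, 2 for each of 8 conditions. Wild-type (WT) cells were exposed for 5 h to the solvent DMSO or to 10 µM SFN (sulforaphane, an activator of the transcription factor Nrf2) and were sampled then, in isosmotic medium, or after 1 h or 6 h in hyperosmotic medium of 600 mOsm. Nrf2-/- cells, a line edited by CRISPR/Cas9 for which clonality is not stated in the sources used here, were given SFN and sampled in isosmotic medium or after 1 h of stress, and Nrf2-/- cells given DMSO or stressed for 6 h were not analysed here. As the design is described, isosmotic RNA was taken at the end of the 5 h treatment, with no replacement of medium mentioned, so stress, medium replacement and elapsed time cannot be told apart. The libraries of a condition are described as biological replicates, and what separated them (culture, passage or day) is not given in the sources used here, so p-values measure the spread between these libraries. Library totals lay between 34484296 and 50774875 counts. Levels are given as CPM (counts scaled to the size and composition of each library), and as RPKM (also per kilobase of exon) where genes are compared with each other.

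ENaC is the channel through which principal cells of the collecting duct take up sodium at their apical membrane. Its alpha, beta and gamma subunits form 1 channel, NEDD4-2 (encoded by Nedd4l) tags them for removal from the membrane, and SGK1 phosphorylates NEDD4-2 and so keeps the channel in place. Sgk1 is transcribed in response to aldosterone through the mineralocorticoid receptor, to glucocorticoids through the glucocorticoid receptor, and to cell shrinkage, while Tsc22d3 is a classical corticosteroid target.

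Nfe2l2, which encodes Nrf2, was checked first. It lay between 64.0 and 149 CPM in the 12 WT libraries, and at 11.1 and 11.6 CPM in the isosmotic and 11.0 and 11.1 CPM in the 1 h Nrf2-/- libraries. The genotypes did not overlap. The epithelial markers Krt8, Krt18, Krt19, Cdh1 and Epcam had a summed level of 1810 to 2961 CPM over all libraries. The sum covers differences between genotypes. With SFN before stress, Cdh1 had means of 438 CPM in Nrf2-/- and 143 CPM in WT cells, and Epcam of 284 and 48.8 CPM. The means of Krt8, Krt18 and Krt19 were lower in Nrf2-/- than in WT cells there. Among 9 principal cell markers, Tfcp2l1 and Hoxb7 were expressed, whereas Aqp2, the vasopressin-regulated water channel, lay between 0 and 0.323 CPM. Aqp3, Aqp4, Avpr2, Slc14a2 and Elf5 were at most at 0.821 CPM in any library. Gata3 had means of 2.62 to 6.23 CPM in WT conditions and of 0.508 and 0.559 CPM in Nrf2-/- conditions. Tfcp2l1 went the other way, with means of 27.2 CPM in WT and 62.7 CPM in Nrf2-/- cells with SFN before stress. At 1 h these means were 25.1 and 64.8 CPM. The pair of Nrf2-/- libraries at 1 h stood apart, with a biological coefficient of variation of 0.348 between them against 0.0395 to 0.128 in the other 7 pairs. Comparisons within WT cells were therefore fitted on the 12 WT libraries (18959 genes tested), and those with Nrf2-/- cells on all 16 (19509 genes tested). A gene was called at an adjusted p under 0.05 in edgeR's quasi-likelihood test, and values after ± are standard errors.

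The genes differed widely in level. In unstressed WT cells with DMSO, mean RPKM was 9.85 for Nr3c1, 7.68 for Sgk1, 5.43 for Nedd4l, 1.16 for Tsc22d3, 0.442 for Nr3c2, 0.373 for Scnn1a and 0.00739 for Scnn1g, and Scnn1b had no count. After 6 h of stress with DMSO, the mean of Sgk1 was 139 RPKM, while that of Nr3c1 was 14.2 RPKM and that of Nedd4l 6.36 RPKM. Sgk1, Nedd4l and Nr3c1 thus formed an upper group by RPKM in every condition, and Nr3c2 and the channel subunits lay under 1 RPKM throughout. The order of Nr3c2 and Scnn1a in unstressed DMSO cells was not the same in both replicates, and their libraries overlapped.

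**Figure D1:**
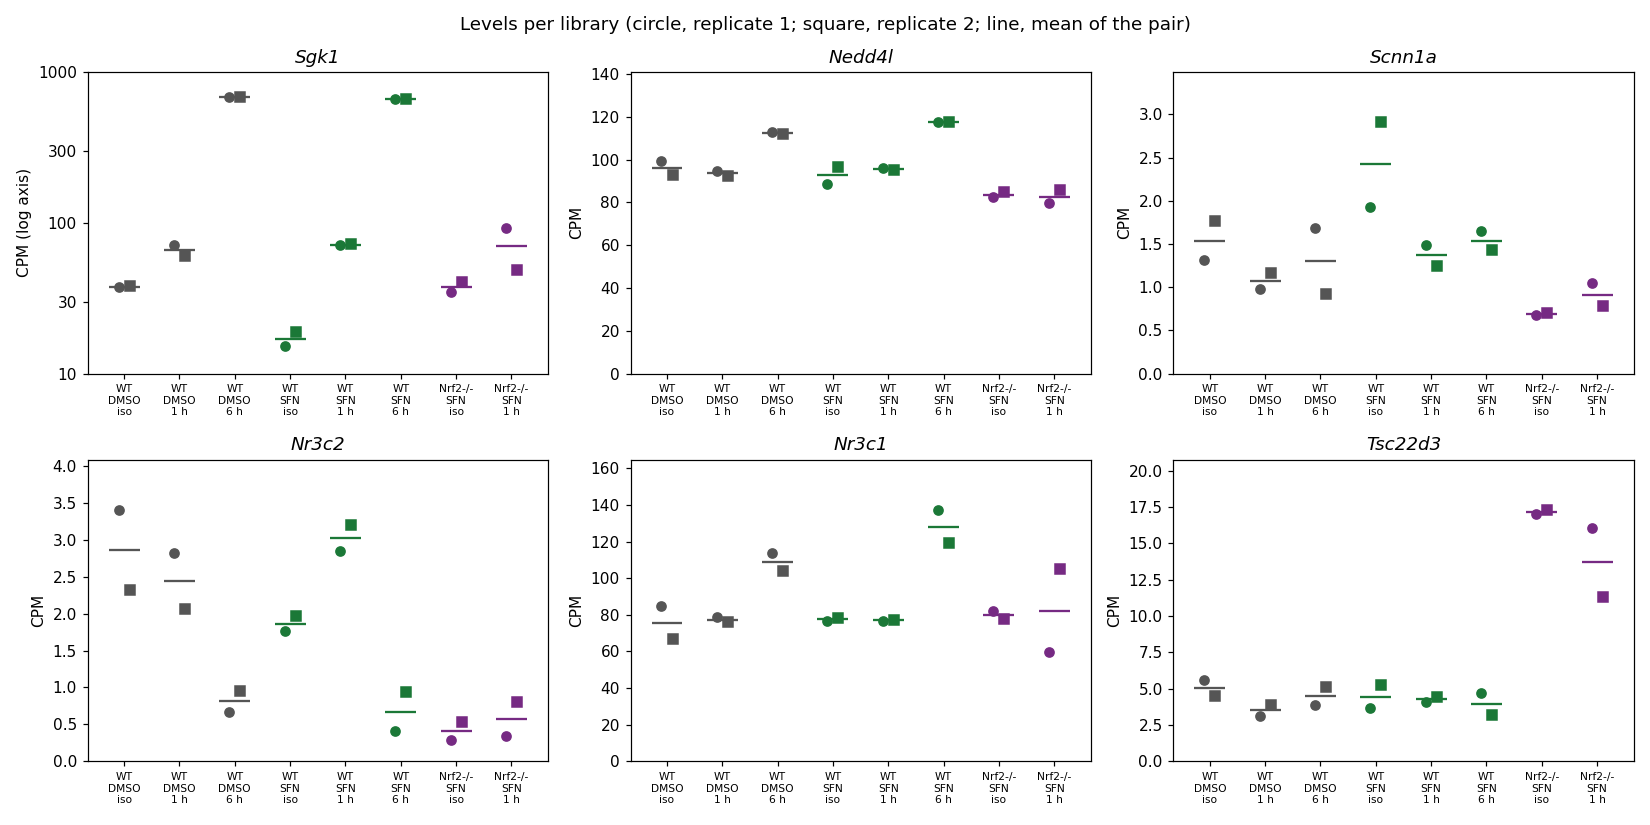
Levels of the 6 tested genes in CPM (y axis, logarithmic for Sgk1 and linear from 0 for the others) in each library, by condition (x axis; iso, isosmotic; 1 h and 6 h, hours of hyperosmotic stress). Circles are replicate 1, squares replicate 2 and lines the mean of the pair. Sgk1 stood at 657 to 682 CPM in all 4 libraries at 6 h, and Tsc22d3 at 11.3 CPM or more in all 4 Nrf2-/- libraries.

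Sgk1 had the widest range among the 6 tested genes. It lies on chromosome 10, at 21882184 to 21999903 of GRCm38 (the assembly also called mm10), on the plus strand, and RefSeq lists 6 start sites with a window of 250 bases upstream. Of these windows, 3 are shown because corticosteroid receptors act on Sgk1 transcription and 2 of them hold the letters ACANNNTGT (the core of the palindrome that both receptors bind, which reads the same on either strand). The capitals mark this match, and the last window, next to the most downstream start, holds none.
Sgk1 window at chr10:21978422-21978671, plus strand: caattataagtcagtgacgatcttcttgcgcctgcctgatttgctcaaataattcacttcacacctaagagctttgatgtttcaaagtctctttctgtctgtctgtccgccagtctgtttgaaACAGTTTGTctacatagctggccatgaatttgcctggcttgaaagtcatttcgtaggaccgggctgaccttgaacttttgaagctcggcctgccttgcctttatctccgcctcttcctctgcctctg
Sgk1 window at chr10:21993640-21993889, plus strand: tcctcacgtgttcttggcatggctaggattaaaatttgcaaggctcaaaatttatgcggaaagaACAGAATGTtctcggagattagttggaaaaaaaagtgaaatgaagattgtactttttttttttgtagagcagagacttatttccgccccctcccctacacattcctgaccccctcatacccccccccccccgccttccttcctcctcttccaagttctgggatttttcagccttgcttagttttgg
Sgk1 window at chr10:21994416-21994665, plus strand: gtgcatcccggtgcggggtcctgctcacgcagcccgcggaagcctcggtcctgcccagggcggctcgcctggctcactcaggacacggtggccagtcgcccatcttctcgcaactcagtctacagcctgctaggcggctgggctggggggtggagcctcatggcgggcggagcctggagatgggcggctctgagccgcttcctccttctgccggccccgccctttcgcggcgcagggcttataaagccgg
The matches began at -127 and -186 from their start sites. Of 32851 RefSeq windows of this length, 5.84% held ACANNNTGT. None of the 6 Sgk1 windows held TGACNNNGC on either strand (the core of the antioxidant response element, found in 10.2% of all windows). They also held no match to a pattern resembling TonE, the element that NFAT5 binds (4.57% of all windows). The pattern searched is longer than the usual TonE consensus, so presence or absence of that consensus cannot be told from it. RefSeq windows were found for 5 of the 8 genes, 12 windows in all. The longer pattern was found in 1 of them, that of Nr3c2, and this match does not meet the usual consensus. The counts are per gene, so the start site behind the Sgk1 transcripts cannot be told from them.

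In WT cells with DMSO, Sgk1 was moderately higher after 1 h in hyperosmotic medium and much higher after 6 h. The isosmotic libraries were at 37.2 and 38.0 CPM. After 1 h they were at 71.3 and 59.7 CPM, and after 6 h at 681 and 682 CPM. Neither time overlapped with the isosmotic pair or with the other time. The change was 1.76-fold at 1 h (log2 0.82 ± 0.08, adjusted p = 5.7e-07) and 18.4-fold at 6 h (log2 4.20 ± 0.09, adjusted p = 3.5e-18). From 1 h to 6 h the level rose a further 10.4-fold (log2 3.38 ± 0.09, adjusted p = 3.9e-17). The p at 6 h was the 10th smallest of the 18959 genes, while its fold change ranked 1481st among upward changes.

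At 1 h, Sgk1 was the 1 called gene of the 6 tested, where 22.9% of all tested genes were called. At 6 h, 4 of the 6 were called (Sgk1, Nedd4l, Nr3c1 and Nr3c2), where 57.6% of all genes were, and the same count held between 1 h and 6 h, where 54.4% were. A call at 6 h was thus common among all genes. The log2 changes of the other 3 called genes lay between -1.80 and 0.55 at that time, against 4.20 for Sgk1.

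With SFN, Sgk1 started lower and reached the same range. The isosmotic libraries were at 15.2 and 18.7 CPM. After 1 h they were at 70.8 and 72.1 CPM, and after 6 h at 657 and 661 CPM. The 3 times did not overlap. Sgk1 rose 4.19-fold by 1 h (log2 2.07 ± 0.09, adjusted p = 7.4e-12), again as the 1 called gene of 6 against 18.3% of all genes. By 6 h it had risen 39.0-fold (log2 5.28 ± 0.10, adjusted p = 1.5e-19), and Nedd4l, Nr3c1 and Nr3c2 were called with it, against 59.7% of all genes.

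**Figure D2:**
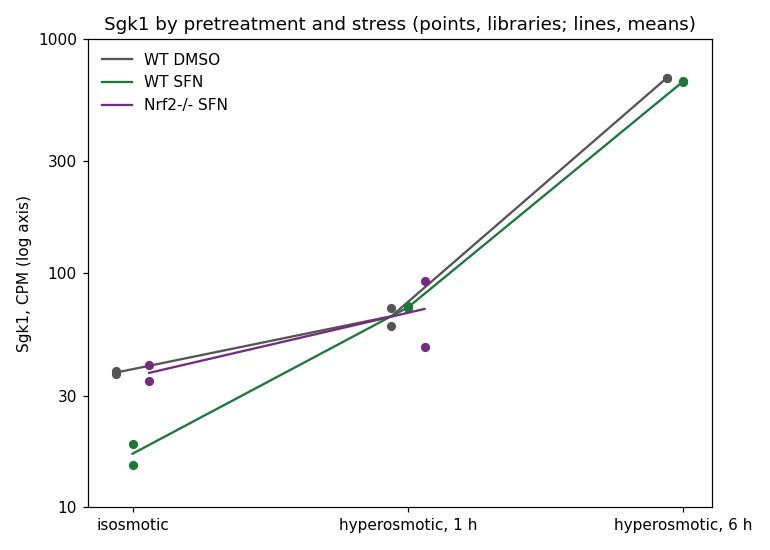
Sgk1 in CPM (y axis, logarithmic) before stress (isosmotic) and at 1 h and 6 h in hyperosmotic medium (x axis). Points are libraries, lines join the means, and colours give the genotype and pretreatment. The WT SFN pair lay at 15.2 and 18.7 CPM before stress, under all other pairs, and the WT courses met at 1 h and 6 h.

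The comparison of SFN with DMSO therefore gave a difference before stress and no called difference during it. In isosmotic cells Sgk1 was 2.18-fold lower with SFN (log2 -1.12 ± 0.09, adjusted p = 2.0e-08), the 1 called gene of 6, where 15.2% of all genes were called. At 1 h the difference was 0.12 on the log2 scale (95% interval -0.05 to 0.29, adjusted p = 0.87), and at 6 h it was -0.04 (-0.21 to 0.12, adjusted p = 0.93). At 1 h, edgeR called 0 of the 6 genes, 0 had an unadjusted p under 0.05 and DESeq2 called 0, with 0.533% of all genes called. At 6 h, edgeR and DESeq2 called 0 of the 6, with 0.243% of all genes called by edgeR. Nr3c1 was the 1 gene with an unadjusted p under 0.05 there (log2 0.24 ± 0.09, adjusted p = 0.47).

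Tested directly, the response of Sgk1 to stress was larger after SFN than after DMSO, by 1.25 on the log2 scale at 1 h (± 0.12, 2.37-fold, adjusted p = 1.3e-06) and by 1.08 at 6 h (± 0.12, 2.12-fold, adjusted p = 4.5e-06). Of the 6 genes, Sgk1 was the 1 called in each interaction, against 3.09% of all genes at 1 h and 4.24% at 6 h. Both interactions share the isosmotic pairs with the comparison of SFN and DMSO before stress, so they are no independent evidence of it. With all 16 libraries in the fit the differences were 1.27 and 1.10, and neither was called (adjusted p = 0.11 and 0.16). The 5 epithelial markers moved with this result. All 5 were called lower with SFN before stress, with a summed level of 1810 to 2005 CPM against 2622 to 2961 CPM with DMSO, and all 5 were called in both interactions. Their part in the Sgk1 difference was not tested.

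In Nrf2-/- cells with SFN, Sgk1 before stress was at 34.5 and 40.6 CPM. These libraries lay above both WT SFN libraries and on either side of the WT DMSO pair. The difference from WT SFN cells was 2.21-fold (log2 1.14 ± 0.22, adjusted p = 0.00098), and it too rests on the WT SFN isosmotic pair. Against that, 34.1% of all genes were called between the genotypes before stress, and 4 of the 6 genes here were (Sgk1, Tsc22d3, Scnn1a and Nr3c2). Of the 5 epithelial markers, 2 were called higher in Nrf2-/- cells in this comparison and 0 lower. Their part in this Sgk1 difference was not tested.

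After 1 h of stress the Nrf2-/- libraries were at 92.5 and 48.2 CPM, one above and the other below the WT pair with SFN. The mean difference from WT was near 0 (log2 -0.02 ± 0.21, adjusted p = 0.96), and it was called in opposite directions without replicate 1 (-0.56) and without replicate 2 (0.37). Within Nrf2-/- cells Sgk1 was 1.87-fold higher at 1 h than before stress (log2 0.91 ± 0.21, adjusted p = 0.020). It was the 1 called gene of 6, where 7.17% of all genes were called, and the call was lost without either isosmotic Nrf2-/- library (adjusted p = 0.16 and 0.081). The difference between the genotypes in the 1 h response was -1.17 ± 0.30 on the log2 scale (unadjusted p = 0.0018, adjusted p = 0.24), edgeR called 0 of the 6 genes with 0.123% of all genes called, 2 genes (Sgk1 and Scnn1a) had an unadjusted p under 0.05, and DESeq2 called 1, Sgk1 (adjusted p = 0.026). Without replicate 1 of the stressed Nrf2-/- pair the difference was -1.71 and without replicate 2 it was -0.76, and both were called.

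Nedd4l, the ligase that SGK1 restrains, varied little. In WT libraries it lay between 88.5 and 118 CPM, and in Nrf2-/- libraries between 79.6 and 85.6 CPM, below every WT library. With DMSO it was at 99.3 and 92.6 CPM before stress, at 94.7 and 92.4 CPM after 1 h and at 113 and 112 CPM after 6 h. With SFN it went from 88.5 and 96.7 CPM to 118 and 117 CPM at 6 h. The rise at 6 h was small but larger than the spread between libraries with either pretreatment, 1.19-fold with DMSO (log2 0.25 ± 0.07, adjusted p = 0.0036) and 1.28-fold with SFN (log2 0.35 ± 0.07, adjusted p = 0.00016). The genotype difference with SFN was not called before stress (log2 -0.15 ± 0.09, adjusted p = 0.22) or at 1 h (log2 -0.21 ± 0.09, adjusted p = 0.087). Without stressed Nrf2-/- replicate 2 the 1 h difference was -0.26. An exon of Nedd4l overlaps A330084C13Rik on the other strand, and without a stated strand setting their reads cannot be told apart.

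**Figure D3:**
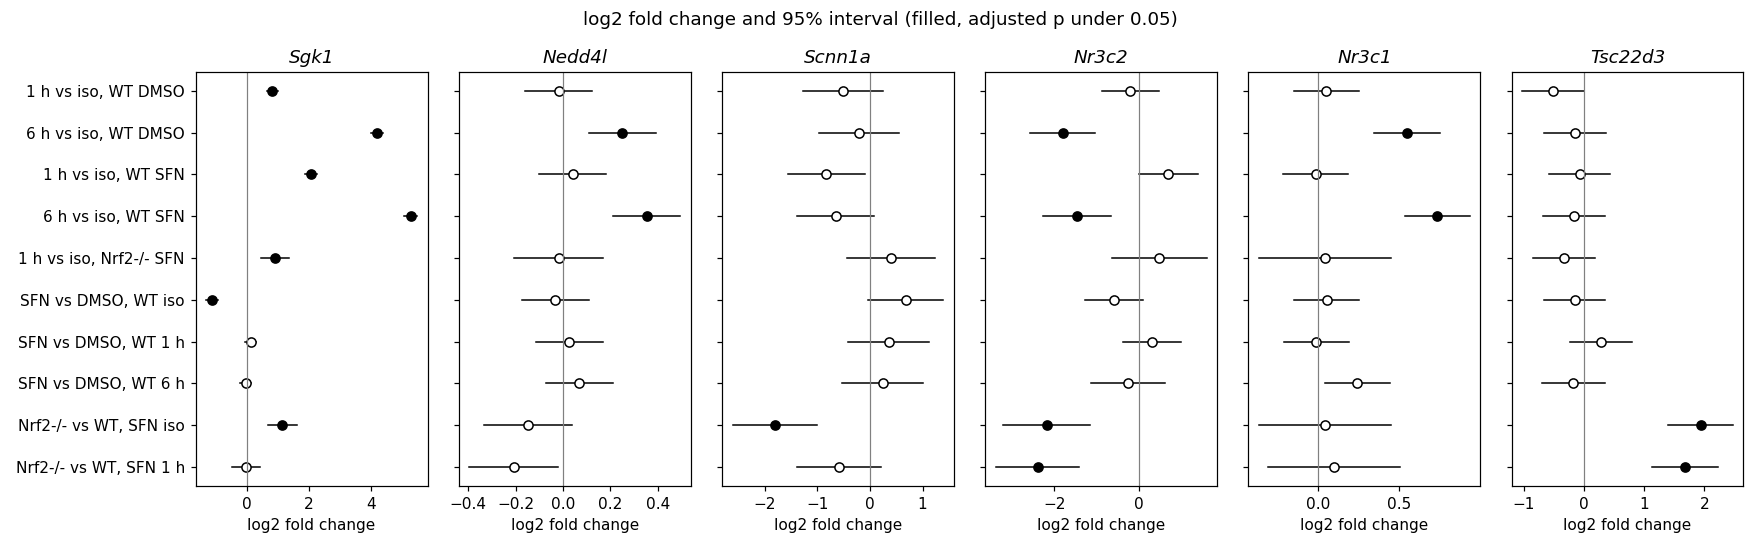
log2 fold changes (x axis, a scale per gene) of the 6 tested genes in 10 comparisons (y axis). Points are edgeR estimates, bars 95% intervals, and filled points were called at an adjusted p under 0.05. Sgk1 was called in 7 of the 10 comparisons, Nr3c2 at 6 h and between genotypes, Tsc22d3 between genotypes, and Scnn1a between genotypes before stress.

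The alpha subunit Scnn1a, the one subunit expressed above the filter, was rare in these cells. It lies on chromosome 6 at 125320659 to 125344943. WT DMSO libraries held 55 and 80 counts before stress, 43 and 44 after 1 h and 58 and 30 after 6 h. WT SFN libraries held 72 and 157, 57 and 50, and 56 and 46 counts, and Nrf2-/- libraries 24 and 26 counts before stress and 37 and 27 after 1 h.

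Neither stress nor SFN gave a called change of Scnn1a in WT cells. At 1 h, both stressed libraries lay under both isosmotic ones, from 1.31 and 1.77 CPM to 0.973 and 1.17 CPM with DMSO (log2 -0.51 ± 0.36, adjusted p = 0.35) and from 1.93 and 2.91 CPM to 1.49 and 1.25 CPM with SFN (log2 -0.83 ± 0.35, adjusted p = 0.11). At 6 h the DMSO pairs overlapped, and with SFN the difference was -0.65 ± 0.35 (adjusted p = 0.12). Before stress SFN libraries lay above DMSO libraries (log2 0.68 ± 0.34, adjusted p = 0.20). At these counts the 95% intervals of the 4 differences reached as far as -1.56 and 1.39.

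Between genotypes Scnn1a was called before stress. Nrf2-/- libraries were at 0.683 and 0.698 CPM, 3.51-fold lower than WT libraries with SFN (log2 -1.81 ± 0.37, adjusted p = 0.0016). At 1 h they were at 1.05 and 0.779 CPM against 1.49 and 1.25 CPM in WT (log2 -0.58 ± 0.37, adjusted p = 0.27), without overlap. The change of the genotype difference was 1.23 ± 0.53 (unadjusted p = 0.034, adjusted p = 0.62). At 1 h, 2 of the 6 genes (Nr3c2 and Tsc22d3) were called between genotypes, against 31.5% of all genes. The count was larger when either stressed Nrf2-/- library was left out. Without replicate 1 of that pair, more of all genes were called as well.

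Scnn1b and Scnn1g, the beta and gamma subunits, lie side by side on chromosome 7, at 121865038 to 121918514 and at 121734479 to 121768475, and were at or near 0. Scnn1g had 2 counts in 1 isosmotic DMSO library, 4 in 1 isosmotic SFN library, 2 in 1 SFN library at 1 h and none elsewhere. Scnn1b had none in the 4 isosmotic WT libraries, 4 and 6 after 1 h with DMSO, and 6 and 13 after 1 h with SFN. At 6 h it had none with DMSO and 4 and 0 with SFN, and in Nrf2-/- cells it had 0 and 2 before stress and 8 and 0 after 1 h. All 4 WT libraries at 1 h thus held counts where the 4 isosmotic WT libraries held none. With no filter on low counts, the 1 h difference had an adjusted p of 0.14 with DMSO and 0.068 with SFN, and neither was called. Of counts from 1 to 10, 58.0% to 68.5% were even in each library, so a count need not be an independent fragment.

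Nr3c2, the mineralocorticoid receptor, fell late in the stress. It lies on chromosome 8 at 76899442 to 77245012. With DMSO it was at 3.41 and 2.32 CPM before stress, at 2.83 and 2.07 CPM after 1 h and at 0.666 and 0.957 CPM after 6 h. With SFN it was at 1.77 and 1.96 CPM, at 2.84 and 3.20 CPM and at 0.411 and 0.935 CPM. With either pretreatment, the 6 h libraries lay below all earlier ones.

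Nr3c2 was 3.47-fold lower at 6 h than before stress with DMSO (log2 -1.80 ± 0.37, adjusted p = 0.00029), and 3.01-fold lower than at 1 h (log2 -1.59 ± 0.37, adjusted p = 0.0010). With SFN it was 2.77-fold lower at 6 h (log2 -1.47 ± 0.38, adjusted p = 0.0025), and without SFN 6 h replicate 1 the change was -0.99 and no longer called (adjusted p = 0.060). The 1 h rise with SFN was not called (log2 0.69 ± 0.33, adjusted p = 0.16), nor was the lower level with SFN before stress (log2 -0.59 ± 0.33, adjusted p = 0.25). The 6 h libraries held 14 to 31 counts of this gene.

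Nrf2-/- cells had little Nr3c2 at any time, with 0.284 and 0.537 CPM before stress and 0.340 and 0.807 CPM after 1 h. Both pairs lay below the matching WT pairs. The difference was called before stress (log2 -2.17 ± 0.48, adjusted p = 0.0025) and at 1 h, where Nr3c2 was 5.25-fold lower (log2 -2.39 ± 0.46, adjusted p = 0.0010). An exon of Nr3c2 overlaps Gm10649 on the other strand.

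Nr3c1, the glucocorticoid receptor, moved the other way at 6 h. With DMSO it was at 84.7 and 66.7 CPM before stress, at 79.0 and 75.8 CPM after 1 h and at 114 and 104 CPM after 6 h. With SFN it was at 76.8 and 78.5 CPM, at 76.7 and 77.2 CPM and at 137 and 119 CPM. The 6 h libraries lay above all earlier WT libraries.

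The rise of Nr3c1 was 1.46-fold with DMSO (log2 0.55 ± 0.10, adjusted p = 6.5e-05) and 1.66-fold with SFN (log2 0.73 ± 0.10, adjusted p = 1.9e-06). In Nrf2-/- cells Nr3c1 was at 82.2 and 77.6 CPM before stress and at 59.7 and 105 CPM after 1 h, and no genotype difference was called. At 6 h the mean level per length of Nr3c1 was 14.2 RPKM with DMSO and that of Nr3c2 was 0.125 RPKM.

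Tsc22d3 did not follow Sgk1. In WT libraries it lay between 3.10 and 5.62 CPM in every condition, and no comparison within WT cells called it. The largest of these was at 1 h with DMSO, from 5.62 and 4.49 CPM to 3.10 and 3.90 CPM (log2 -0.52 ± 0.24, unadjusted p = 0.048, adjusted p = 0.14). At 6 h it was at 3.85 and 5.13 CPM with DMSO, overlapping with the isosmotic pair. The plot of corticosteroid target genes shows it near 0 beside Sgk1.

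In Nrf2-/- libraries Tsc22d3 was at 17.0 and 17.3 CPM before stress and at 16.1 and 11.3 CPM after 1 h, above every WT library. It was 3.83-fold higher than in WT cells before stress (log2 1.94 ± 0.25, adjusted p = 2.9e-05) and 3.20-fold higher at 1 h (log2 1.68 ± 0.25, adjusted p = 0.00014). Tsc22d3 lies on chromosome X, at 140539528 to 140600659. The 567 tested genes of that chromosome had a median log2 difference of 0.79 before stress, with 301 called higher and 42 lower, and of 0.85 at 1 h, with 303 and 43. The medians of the autosomes lay between -0.23 and 0.30 before stress and between -0.27 and 0.20 at 1 h. Tsc22d3 had the 66th largest difference of the 567 before stress and the 75th at 1 h, and relative to the chromosome's median it was higher by 1.15 and 0.83. The part of the chromosome in this result was not tested.

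**Figure D4:**
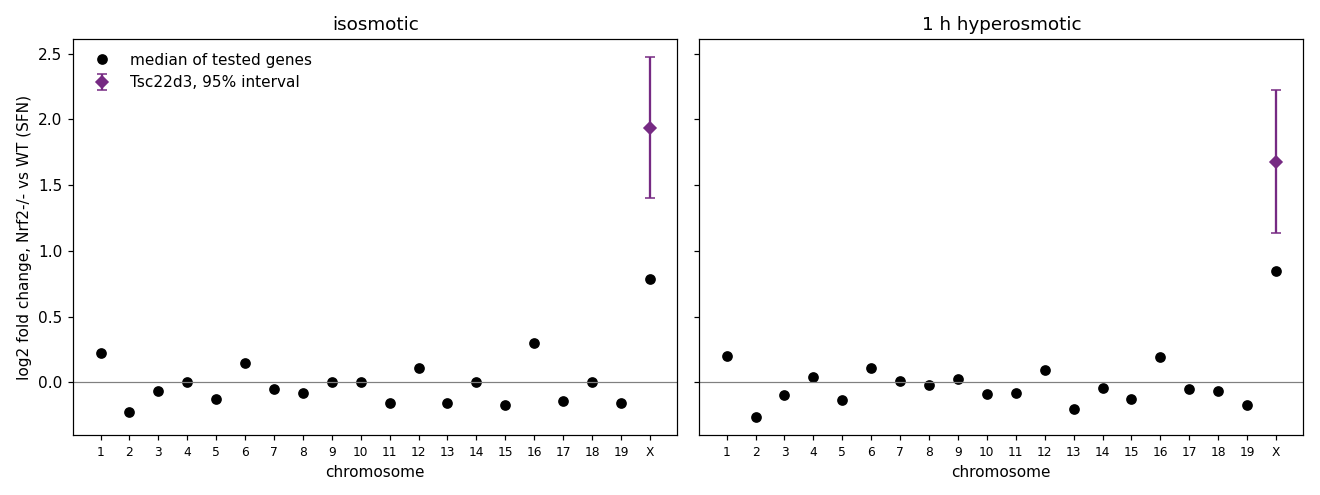
Median log2 fold change of the tested genes of each chromosome (black points) between Nrf2-/- and WT cells with SFN (y axis), before stress and at 1 h, with Tsc22d3 and its 95% interval (diamond) at chromosome X. The X median was 0.79 and 0.85, above all autosomes, and Tsc22d3 lay higher still at 1.94 and 1.68.

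The other genes of the pathway were taken from 7 lists, chosen with earlier results of these data known. Their counts of called genes stand against the share of all genes called in the same comparison, which was 57.6% at 6 h with DMSO and 59.7% with SFN. Of 12 corticosteroid target genes, 11 were tested. At 6 h with DMSO, 7 were called higher and 2 lower, with a median log2 change of 1.62 where that of all genes was 0.07. With SFN, 8 were called higher and 1 lower, with a median of 1.85 (all genes, 0.10). The largest changes with DMSO were those of Rgs2, a regulator of G protein signalling (log2 3.71 ± 0.54), Ddit4, an inhibitor of mTORC1 (3.15 ± 0.12), the clock gene Per1 (2.05 ± 0.08) and the repressor Bcl6 (1.78 ± 0.08). Rgs2 was rare, with DMSO means of 0.219 CPM before stress, 0.716 CPM at 1 h and 2.85 CPM at 6 h. The standard deviation of its 6 h pair was 1.10 CPM. Fkbp5, the receptor co-chaperone that corticosteroids induce in many tissues, was at 42.3 CPM before stress and 43.7 CPM at 6 h with DMSO and was not called. At 1 h with DMSO, where 22.9% of all genes were called, 2 of the 11 were called higher, Rgs2 (1.72 ± 0.56) and Ddit4 (0.85 ± 0.11), and 4 lower, Dusp1 (-0.61 ± 0.07) and Klf9 (-0.49 ± 0.12) among them. Pdk4 was called lower at 6 h with DMSO (-0.99 ± 0.39) and higher with SFN (0.98 ± 0.40), and the difference itself was not called (1.97 ± 0.56, adjusted p = 0.051). Its means before stress and at 6 h were low, at 1.93 and 0.948 CPM with DMSO and at 0.729 and 1.44 CPM with SFN.

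**Figure D5:**
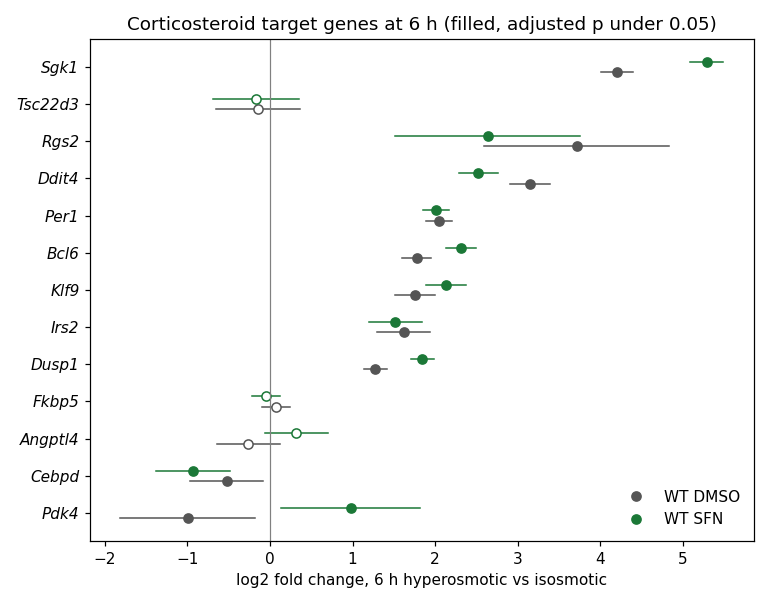
log2 fold change at 6 h of hyperosmotic stress against isosmotic conditions (x axis) for 11 corticosteroid target genes, Tsc22d3 and Sgk1 (y axis), in WT cells with DMSO or SFN. Points are edgeR estimates, bars 95% intervals, and filled points were called. Sgk1 had the largest change with either pretreatment, at 4.20 and 5.28, and Tsc22d3 and Fkbp5 were not called.

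The RNAs of other corticosteroid receptor partners moved less. Of 8 chaperone and steroid metabolism genes, 7 were tested and 4 were called higher at 6 h with DMSO, namely Hsp90aa1 (0.43 ± 0.06), Hsp90ab1 (0.35 ± 0.05), Ptges3 (0.22 ± 0.07) and Stip1 (0.17 ± 0.06), all parts of the HSP90 machinery that holds the unliganded receptors. The median of the 7 was 0.18 (all genes, 0.07). A count of 4 of 7 is near the 57.6% of all genes. The same 4 were called higher with SFN. Hsp90aa1 was also called higher with SFN than with DMSO before stress (0.43 ± 0.06) and at 1 h (0.34 ± 0.06) and 6 h (0.30 ± 0.06). Hsd11b2, which inactivates glucocorticoids in aldosterone target cells, had a mean of at most 0.76 CPM in any condition.

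Among 11 ubiquitin ligases, deubiquitinases and scaffolds of ENaC, 7 were called higher and 2 lower at 6 h with DMSO (57.6% of all genes called), with a median of 0.20 (all genes, 0.07). Cnksr3, a scaffold that brings SGK1 and NEDD4-2 together and is itself induced by aldosterone, rose from 49.0 to 149 CPM (1.63 ± 0.08), and the deubiquitinases Usp2 (1.25 ± 0.38) and Usp10 (0.53 ± 0.06) rose too, while the ligase Itch fell (-0.52 ± 0.09). Usp2 was rare, with DMSO means of 0.925 CPM before stress and 2.17 CPM at 6 h, where the standard deviation of the pair was 1.23 CPM. With SFN 6 were called higher and 2 lower, with Cnksr3 at 1.81 ± 0.08. Cnksr3 was called lower in Nrf2-/- than in WT cells before stress (-0.59 ± 0.09) and at 1 h (-0.58 ± 0.09), where 2 and 3 of the 11 were called higher and Cnksr3 was the 1 called lower, against 34.1% and 31.5% of all genes called.

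Of 11 SGK kinases, upstream kinases and substrates, 4 were called higher and 2 lower at 6 h with DMSO, and 3 and 3 with SFN. These counts are near the shares of all genes called, 57.6% and 59.7%. Ndrg1, an SGK1 substrate, rose from 28.9 to 83.1 CPM with DMSO (1.54 ± 0.08) and Foxo3, a transcription factor that SGK1 inhibits, rose by 1.18 ± 0.08. Sgk3, a paralog of Sgk1, fell by 0.79 on the log2 scale (± 0.10), and Mapkap1, a subunit of the kinase complex mTORC2 that activates SGK1, fell by 0.75 (± 0.07). At 1 h, 5 of the 11 were called higher and 1 lower with DMSO (22.9% of all genes called), and 0 and 1 with SFN (18.3%). Between SFN and DMSO before stress, 5 were called higher with SFN and 2 lower (15.2% of all genes called). During stress, 0 were called higher and 1 lower at 1 h (0.533%), and 0 and 0 at 6 h (0.243%). In Nrf2-/- cells before stress, 4 of the 11 were called higher and 4 lower than in WT cells, where 34.1% of all genes were called. Ndrg1 was higher (2.21 ± 0.12) and the kinase Wnk4, a regulator of sodium transport, was lower (-1.55 ± 0.14), while Sgk2, also called lower, had only 2 and 0 counts in the Nrf2-/- pair.

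Of 8 ENaC proteases and their inhibitors, 7 were tested. Furin, which cleaves the channel inside the cell, was called higher at 6 h with DMSO (1.11 ± 0.07) and SFN (1.03 ± 0.07), and the inhibitor Spint1 was called lower with both (-0.67 ± 0.07 and -0.52 ± 0.07). In total 2 were called higher and 1 lower with DMSO, against 57.6% of all genes called, and 4 and 1 with SFN, against 59.7%. The protease St14 was called lower with SFN than with DMSO before stress (-0.61 ± 0.06) and higher in Nrf2-/- than in WT cells at that time (1.47 ± 0.09). Pcsk6 had no count in any Nrf2-/- library and up to 2.92 CPM in WT libraries. Of the 5 acid-sensing relatives of ENaC, 2 were tested, and Asic1 was called lower at 6 h with DMSO (-1.41 ± 0.27) and SFN (-1.31 ± 0.27). Of the TSC22 family beside Tsc22d3, Tsc22d2 (1.44 ± 0.09) and Tsc22d4 (1.30 ± 0.07) were called higher at 6 h with DMSO and Tsc22d1 lower (-0.72 ± 0.06).

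Between the genotypes, the 11 tested corticosteroid target genes did not share a direction. Before stress 5 were called higher in Nrf2-/- cells and 6 lower, with a median of -0.42 where that of all genes was -0.00091 and 34.1% of all genes were called. Pdk4, a kinase that inhibits pyruvate dehydrogenase, was higher (4.47 ± 0.31) and Rgs2 too (2.72 ± 0.55), while the lipase inhibitor Angptl4 (-4.20 ± 0.30) and the insulin receptor substrate Irs2 (-2.32 ± 0.18) were lower. Rgs2 was rare here too, with means of 0.237 CPM in WT and 1.60 CPM in Nrf2-/- cells. At 1 h 3 were called higher and 5 lower, against 31.5% of all genes called.

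Some markers of other cell types moved with the 6 h and the genotype comparisons. Ptprc, the leukocyte marker, lay at or under 0.272 CPM in WT libraries before 6 h and at 4.08 to 5.68 CPM at 6 h, and the endothelial markers Pecam1 and Cdh5 summed to at most 0.652 CPM before and to 3.30 to 4.64 CPM at 6 h. The proximal tubule markers Lrp2, Cubn and Slc5a2 summed to 8.98 to 12.7 CPM in WT libraries before 6 h, to 20.9 to 27.4 CPM at 6 h and to 2.50 to 5.65 CPM in Nrf2-/- libraries. Between genotypes 1 of these 3 genes was called lower in Nrf2-/- cells, before stress and at 1 h, against 34.1% and 31.5% of all genes called. Before stress the mean of Lrp2 was 6.86 CPM in WT cells with SFN and 0.169 CPM in Nrf2-/- cells. Cubn did not share this at 1 h, with means of 3.09 and 3.60 CPM. Ptprc was called higher in Nrf2-/- than in WT cells with SFN in both comparisons, at low levels. Its means were 0.330 and 0.0361 CPM before stress and 0.485 and 0.0511 CPM at 1 h. The part of these markers in the results was not tested. Fewer cells of a type and less RNA per cell cannot be told apart in these bulk samples.

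The genes whose 8 condition means of log2 CPM ran most like those of each gene were sought among 12285 genes, as a description over conditions that share libraries. For Sgk1 they were Ctnna1 (Pearson r = 0.997), Plekhg6 (0.988) and Pou2f2 (0.988). For Tsc22d3 they were Igbp1 (0.997), 3830403N18Rik (0.993) and Sms-ps (0.991), all on chromosome X. Nr3c2 ran most like Alkbh7 (0.991), Nr3c1 like Pgm3 (0.993), Nedd4l like Cryab (0.997) and Scnn1a like Fxyd5 (0.949).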

How the data were processed

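Counts of mIMCD3 libraries were analysed, with condition and replicate number taken from the labels. The deposited values were raw counts per gene symbol, which the authors made without normalization from reads aligned to mm10. The submitters' notes name Bowtie2, SAMtools and featureCounts, whereas the paper names Hisat2 as aligner. Versions, annotation and strand setting are not given in the sources used here. The labels name primary cells in 1 place and mIMCD3 elsewhere. The 5 lines without a gene name were left out.

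The members and lists were chosen with earlier results of these data known. Counts were tested in R 4.3.3 with edgeR 4.0.16 (TMM, filterByExpr, robust quasi-likelihood F-test, 1 coefficient per condition) and Benjamini-Hochberg adjustment over all genes of a fit. The choice of the 12 WT libraries for comparisons within WT cells also followed earlier results. With 2 libraries against 2, an exact permutation test cannot reach 0.05 and was not used. CPM used TMM-scaled totals, and RPKM the union exon length of GENCODE M21. Genes named from a list were up to 4 called genes with the largest change per comparison, and Fkbp5, Hsd11b2 and Pdk4 at 6 h were added after their values were seen. Similar genes had a mean of at least 50 counts (log2 CPM, prior count 2). Promoter windows came from RefSeq (GRCm38.p6). The fit was tested on simulated counts. Replicate numbers did not pair the libraries: correlations of same-numbered libraries over 28 pairs of conditions lay between -0.0794 and 0.123, with 1 over 0.1. The WT SFN isosmotic libraries carry other replicate numbers in the names of the deposited tables than in their titles. Titles were used, so the pairing check and the replicate block rest on them.

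Alternatives were DESeq2 1.42.0, size factors by RLE, dropping the filter, a minimum of 10 counts per library, fitting only the libraries compared or all 16, a replicate block and each library left out. The Nrf2-/- 1 h pair was left out, and the chromosome X median subtracted, after the data were seen.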

Additional observations from a re-analysis of the deposited data

Results flagged for a closer look

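The response of Sgk1 to hyperosmotic stress differed between pretreatments by the test of the difference itself. The change from isosmotic conditions was larger with SFN than with DMSO by 1.25 on the log2 scale at 1 h and by 1.08 at 6 h, and in both cases the isosmotic WT pairs were shared. The stressed pairs of the 2 pretreatments differed by 0.12 at 1 h and -0.04 at 6 h.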

How the results depend on the processing

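Of 439 log2 fold changes of single genes recomputed under the alternatives, 423 kept their direction and their side of the threshold, and of 163 counts of called genes among the 6, 150 kept within 1.5 times. The exceptions were few. With all 16 libraries, neither SFN interaction of Sgk1 was called at 1 h or 6 h (0 genes called in each). In Nrf2-/- cells at 1 h against isosmotic conditions, leaving out 1 library gave 0 to 2 called genes, and only the libraries compared gave 0 (Sgk1, log2 0.92, adjusted p = 0.34). Between genotypes at 1 h, leaving out 1 library gave 2 to 5 called genes. There Sgk1 turned from -0.02 to 0.0092 with DESeq2 and 0.0093 with RLE size factors, and leaving out 1 library gave -0.56 to 0.37. In the genotype interaction, 1 gene (Sgk1) was called with DESeq2 and with no filter, and 0 to 1 with 1 library left out. For SFN against DMSO at 1 h, leaving out 1 library gave -0.00045 (without DMSO 1 h replicate 2) to 0.26 for Sgk1 in place of 0.12. With the replicate block, Sgk1 with SFN before stress was at -1.13, and no call among the 6 genes changed. Counts over all genes moved more. With all 16 libraries they fell from 4334 to 2186 (1 h, DMSO), 3466 to 1857 (1 h, SFN), 2875 to 555 (SFN before stress), 101 to 18 and 46 to 8 (SFN at 1 h and 6 h), and 585 to 109 and 803 to 148 (SFN interactions at 1 h and 6 h). With only the libraries compared they went from 101 to 809 (SFN at 1 h), 6154 to 1651 (genotypes at 1 h), 1399 to 7 (Nrf2-/- at 1 h) and 24 to 0 (genotype interaction), and without stressed Nrf2-/- replicate 1 the last was 2072. Leaving out 1 WT library gave 2457 (without DMSO isosmotic replicate 2) to 4459 genes at 1 h with DMSO, 1972 (without SFN 1 h replicate 1) to 3489 at 1 h with SFN and 1336 (without DMSO isosmotic replicate 2) to 3680 for SFN before stress, so the shares of all genes called move with them. The cause was not tested. Low counts limit Scnn1a and Nr3c2 and leave Scnn1b and Scnn1g untested.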
